A study of Mus musculus with 4 samples.

Results

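The genes described here are cytochrome P450 genes of families 1 to 4, the families that hold the enzymes of drug, toxicant, fatty acid and eicosanoid oxidation. They were the symbols made of Cyp, a family number from 1 to 4, a subfamily letter or letters and a final number, selected on a mean above 0 FPKM over the 4 libraries. FPKM is fragments per kilobase of transcript, scaled to the mapped fragments of the library. Of 24421 genes listed in each library, 76 had such a symbol. Of these, 10 were listed at 0 in all 4 libraries and fell outside, and the club cell gene Cyp2f2 was left out by name, which left 65 genes. The rule used the mean level, so which genes are listed at all is a description and not a result. Just inside the threshold were Cyp4x1, with a mean of 0.0164 FPKM, and Cyp2d26, with 0.0176 FPKM, both listed in 1 library. Just outside were genes at 0 throughout, such as Cyp2w1 and Cyp2c44.

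Each library holds the poly(A) RNA of 1 C57BL/6 mouse. Animals 139 and 140 were wild type for Usp25 (Usp25+/+), which encodes a deubiquitinating enzyme, and animals 826 and 850 were Usp25-/-, 2 per genotype. All 4 animals are labelled as females aged 8 weeks that received 2.5% dextran sulfate sodium, a polymer that injures the colon epithelium, in their water over 5 days with 2 days of normal water after it. The tissue is labelled as colon, taken near the anus. No untreated group was analysed here, so every value belongs to treated animals. The sources used here do not say which part of Usp25 was removed or whether the loss is limited to a cell type.

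The transcripts went against the labelled tissue and sex. Muc2, the main mucin of the colon, did not exceed 0.193 FPKM, and of 9 listed absorptive colonocyte markers 6 were under 1 FPKM in every library. Sftpc, the surfactant protein of alveolar type 2 cells of the lung, stood between 339 and 2596 FPKM. The Y-linked gene Ddx3y stood between 12.7 and 30.3 FPKM, while Xist, the RNA of the inactive X of females, did not exceed 0.110 FPKM. Usp25 had 38.5 and 16.6 FPKM in the Usp25+/+ pair, against 2.65 and 1.71 FPKM in the Usp25-/- pair. Animal 139 stood apart from the other 3. It listed 20556 genes above 0, against 15603 to 17242, and its 9 neutrophil markers summed to 40471 FPKM, against 713 to 1993. In whole tissue, fewer cells of a type and less RNA per cell cannot be told apart.

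Cytochrome P450 enzymes are heme proteins, mostly of the endoplasmic reticulum, that insert an oxygen atom into their substrate with electrons passed on by the reductase Por. Families 1 to 3 act mainly on foreign compounds and steroids, and many of their genes are induced through the aryl hydrocarbon receptor, CAR (Nr1i3) or PXR (Nr1i2). Family 4 enzymes hydroxylate the end of fatty acid and eicosanoid chains. In the lung, club and alveolar type 2 cells carry much of the P450 activity, and the liver-type enzymes are scarce.

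A cysteine that binds the heme iron is common to the family. Its search describes reference sequences picked by symbol and checks no deposited value. The coding sequences of GENCODE vM1 on the mouse build mm9 were translated and searched for the P450 heme-binding signature. This was taken strictly as F..G.R.C.G in amino acids, with a dot for any residue. It was found once in 61 of the 63 genes with a protein-coding transcript. The exceptions were Cyp2s1 and Cyp3a59, and Cyp4f37 and Cyp4a29 were not matched by symbol. Failing this strict pattern does not mean that the cysteine is missing. The 30 coding bases of the signature are shown for the 5 most abundant genes and for Cyp2b10 and Cyp3a13, since the results turn on these, with the cysteine codon in capitals.
Cyp4f18: ttctcggctgggcccaggaacTGCatagga
Cyp4f16: ttttctgccgggcccaggaacTGCatagga
Cyp4f13: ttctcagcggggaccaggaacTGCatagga
Cyp4b1: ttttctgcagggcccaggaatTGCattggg
Cyp4v3: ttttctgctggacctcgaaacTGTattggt
Cyp3a13: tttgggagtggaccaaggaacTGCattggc
Cyp2b10: ttctcaacaggaaagcgcattTGTcttggt
Compared with Cyp4f18, the stretch differed at 3 bases in Cyp4f16 and in Cyp4f13, at 6 in Cyp4b1, at 9 in Cyp4v3 and in Cyp3a13, and at 15 in Cyp2b10. The cysteine codon was TGC in 34 of the 61 genes and TGT in 27.

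Family 4 made up most of the P450 signal in every library. Its 17 genes summed to 222, 123, 105 and 127 FPKM in animals 139, 140, 826 and 850. The 39 genes of family 2 summed to 23.6, 25.5, 19.2 and 26.8 FPKM, the 6 of family 3 to 2.14, 0.926, 9.63 and 1.39 FPKM, and the 3 of family 1 to 1.88, 0.360, 0.610 and 1.31 FPKM. Family 2 thus held the most genes and family 4 the most signal. Over the 4 libraries Cyp4f18, Cyp4v3 and Cyp4f16 together made up 70.5% of the mean summed level of the 65 genes. The total was 249 FPKM in animal 139 and 149, 134 and 157 FPKM in the others. Without Cyp4f18 it was 112, 128, 105 and 127 FPKM, so that animal 139 no longer stood highest.

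**Figure D1:**
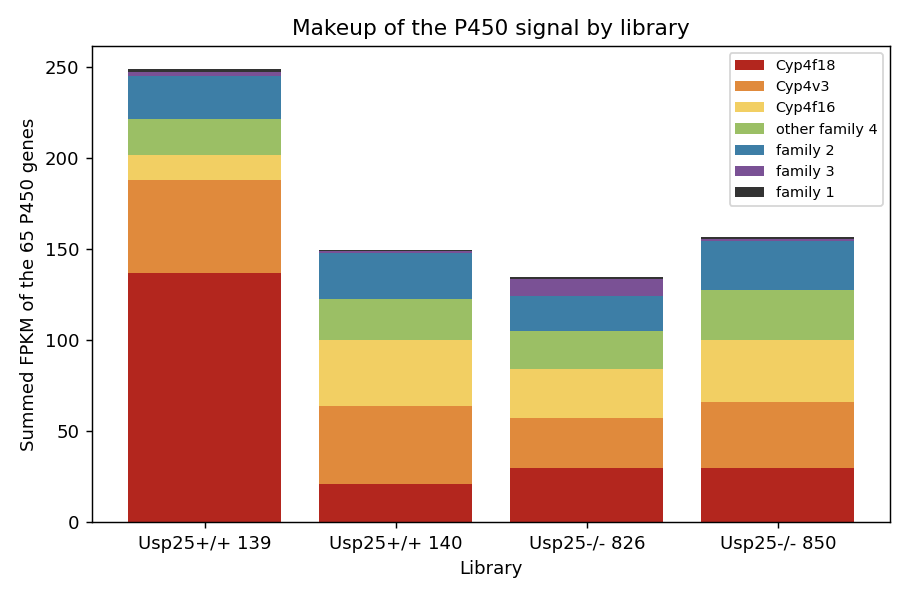
Stacked bars give the summed FPKM of the 65 P450 genes in each library (1 bar per animal, no error bar), split into Cyp4f18, Cyp4v3, Cyp4f16, the other family 4 genes, and families 2, 3 and 1. Cyp4f18 accounts for 137 FPKM of the 249 FPKM in Usp25+/+ 139.

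Only 12 of the 65 genes had a mean of at least 1 FPKM and were tested between the genotypes. With a filter on the mean, a gene high in 1 library can pass, so counts over these 12 do not speak for all 65. None passed the test (limma on log2(FPKM + 1), Benjamini-Hochberg over 12011 genes, threshold 0.05; lowest adjusted p among the 12 = 0.960). Over all genes tested, 0% passed as well. At an unadjusted limma p of 0.05 there were 0 of the 12, where 3.12% of all genes tested lay, and the lowest unadjusted p was 0.125, for Cyp4v3. The difference of the mean log2(FPKM + 1), Usp25-/- minus Usp25+/+, is a log2 fold change and is called the log2 difference below. It was positive in 7 of the 12 and negative in 5, and 53.5% of all genes tested were positive. Without the filter on low values, 21 of the 65 were positive and 44 negative, with a median of -0.06 (-0.04 over all 21786 genes). Of the 53 genes under the filter, 23 were above 0 only in animal 139, so their log2 difference was negative by construction. Among the 9775 low genes of the whole table, 27.5% were above 0 only in that animal. The share of positive genes among the 21786 is not given here. With the filter, the median was 0.15 over the 12 and 0.03 over all genes tested. In 1 of the 12 genes the libraries of the genotypes lay apart without overlap, against 33.8% of all genes tested. That gene was lower in Usp25-/-, as were 14.7% of all genes tested without overlap, and 0 of the 12 were higher without overlap, against 19%. An absolute log2 difference of at least 1 was found in 1 of the 12 genes, Cyp3a13, against 6.56% of all genes tested. With 2 animals in each genotype, the smallest two-sided p of an exact permutation test over samples is 0.33.

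**Figure D2:**
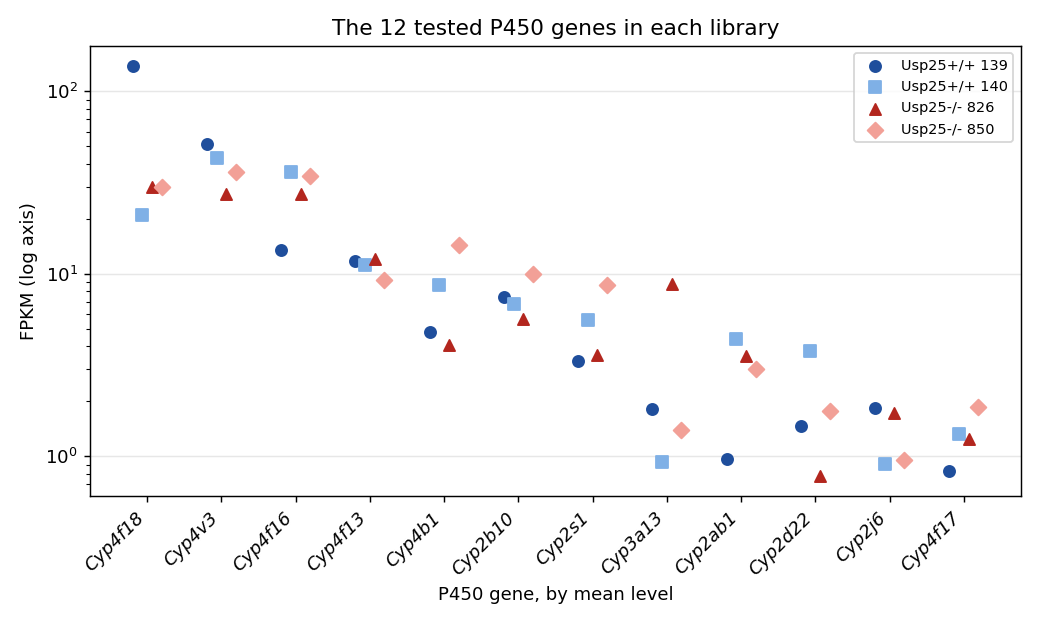
Points give the FPKM (log axis) of the 12 tested P450 genes in each of the 4 libraries, 1 marker per animal, ordered by mean level. Cyp4f18 runs from 21.1 to 137 FPKM through animal 139, Cyp3a13 reaches 8.77 FPKM in animal 826 alone, and the genotypes do not overlap in Cyp4v3.

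Cyp4f18, which hydroxylates leukotriene B4 in mouse myeloid cells, had the highest mean of the 65 genes over the 4 libraries, a rank that rests on animal 139. Without that animal its mean was 26.9 FPKM, below Cyp4v3 (35.4 FPKM) and Cyp4f16 (32.6 FPKM). It had 137 and 21.1 FPKM in the Usp25+/+ pair, against 29.8 and 29.8 FPKM in the Usp25-/- pair. One Usp25+/+ animal lay above both Usp25-/- animals and the other below both, so the genotypes overlapped. The means were 78.9 ± 81.8 and 29.8 ± 0.0526 FPKM (SD, n = 2 each), with a log2 difference of -0.84 (SE 0.87, limma adjusted p = 0.960). Without animal 139 the log2 difference was 0.48, and without animal 140 it was -2.16, so 1 library sets its sign as well. All 9 neutrophil markers found were above 1 FPKM in at least 1 library. S100a8, a calcium-binding protein of neutrophils, stood at 19445 FPKM in animal 139 and at 382, 838 and 536 FPKM in 140, 826 and 850. S100a8 and S100a9 made up most of the summed list, so the order of its sums is mainly theirs. Retnlg, Ngp, Mmp9 and Camp had the same order of animals as S100a8. Csf3r and Cxcr2 stood higher in 850 than in 826, and Mmp8 was lowest in 826, at 12.9 FPKM, against 15.4 FPKM in 140. Cyp4f18 was, like S100a8, highest in 139 and lowest in 140. The part of neutrophils in its level was not tested. The gene lies on mm9 at chr8:74512381-74533525 on the minus strand, and its exons overlap those of Zfp961, which stood between 2.06 and 2.98 FPKM. The reads carry no strand.

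Cyp4v3 was the single gene of the 12 whose genotypes did not overlap. It is a fatty acid omega-hydroxylase whose human counterpart is mutated in Bietti crystalline dystrophy. It had 51.4 and 42.9 FPKM in the Usp25+/+ pair, against 27.4 and 36.0 FPKM in the Usp25-/- pair. Both Usp25-/- values lay below both Usp25+/+ values, at means of 47.2 ± 6.00 against 31.6 ± 6.08 FPKM (SD, n = 2 each). The log2 difference was -0.57 (SE 0.31, limma adjusted p = 0.960), and it lay between -0.76 and -0.38 when each animal was left out in turn. Since the genotypes did not overlap, leaving out 1 animal could not change its sign. The gene lies at chr8:46391155-46418570 on mm9, minus strand. It shares exonic sequence with Klkb1, which did not exceed 0.443 FPKM, and 7.50% of its 100-base windows occur there.

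The other Cyp4f genes of some level were Cyp4f16, Cyp4f13 and Cyp4f17, of the subfamily that omega-hydroxylates leukotrienes and long-chain fatty acids. Cyp4f16 had 13.4 and 36.1 FPKM in the Usp25+/+ pair, against 27.2 and 34.4 FPKM in the Usp25-/- pair. Animal 139 was the low one, opposite to Cyp4f18, and both Usp25-/- animals lay inside the Usp25+/+ range. Its log2 difference was 0.45 (SE 0.51), or -0.23 without animal 139. Cyp4f13 stood at 11.7 and 11.1 against 12 and 9.28 FPKM, the narrowest spread of the 12 genes, with the highest value 1.29 times the lowest. Cyp4f17 stood at 0.832 and 1.33 against 1.24 and 1.86 FPKM, with a log2 difference of 0.29 (SE 0.37). These 3 genes sit on chromosome 17, Cyp4f17 at chr17:32643407-32665839, Cyp4f16 at chr17:32673503-32688743 and Cyp4f13 at chr17:33061633-33084347 on mm9. Their cluster neighbours Cyp4f14, Cyp4f15 and Cyp4f39 did not exceed 0.238 FPKM in any library, while Cyp4f40, which lies between Cyp4f16 and Cyp4f15, reached 1.20 FPKM in animal 826. Of the 100-base windows of Cyp4f16, 8.66% occur in another gene's transcript, nearly all in the gene model Gm9705, so its value is uncertain to that extent.

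Cyp4b1, Cyp2b10 and Cyp2s1 were highest in animal 850. Cyp4b1, known for its abundance in lung and for activating the pneumotoxin ipomeanol, had 4.79 and 8.69 FPKM in the Usp25+/+ pair, against 4.05 and 14.3 FPKM in the Usp25-/- pair. The Usp25-/- animals enclosed the Usp25+/+ pair, with means of 6.74 ± 2.75 and 9.20 ± 7.28 FPKM (SD, n = 2 each) and a log2 difference of 0.23 (SE 0.61). Without animal 850 it was -0.57. Cyp2b10, a CAR-induced drug-metabolising enzyme, stood at 7.44 and 6.85 against 5.66 and 9.95 FPKM, with a log2 difference of 0.07 (SE 0.35), or -0.29 without animal 850. Cyp2s1, an enzyme of epithelia, stood at 3.32 and 5.55 against 3.59 and 8.66 FPKM, with a log2 difference of 0.33 (SE 0.47), or -0.21 without animal 850. In all 3 genes the Usp25-/- pair lay farther apart than the Usp25+/+ pair. Animals 140 and 850 were the higher pair in Cyp4b1 and in Cyp2s1, and the same animals had the higher sums in 7 of 15 marker lists, namely alveolar type 2, ciliated, endothelial, fibroblast, smooth muscle, B cell and T cell markers. The ciliated cell markers summed to 89.8 and 87.9 FPKM in 140 and 850, against 29.3 and 51.8 FPKM in 139 and 826, and the endothelial markers to 231 and 158 against 99.2 and 87.2 FPKM. Tppp3 made up most of the ciliated sum, at 65.1 and 62.6 against 15.9 and 44.5 FPKM. Single markers were divided. Sntn, Tekt1, Dnah5, Col1a1, Col1a2, Pdgfra, Lum, Vwf, Ednrb, Pax5 and Cd4 did not have 140 and 850 as the higher pair. The other ciliated, fibroblast, endothelial, B cell and T cell markers found did. Of the smooth muscle markers, only Tagln and Acta2 did. The alveolar type 2 markers summed to 43031 and 37431 FPKM, against 14258 and 36650 FPKM. Most of that sum was Lyz2, at 38922 and 32571 FPKM, against 12613 and 31444 FPKM, so its order is mainly that of 1 gene. The other markers were divided. Sftpc stood at 2347 and 2596 against 339 and 1376 FPKM, while Sftpb was highest in 826, at 3284 FPKM, against 1139 and 1581 FPKM in 140 and 850. All 8 endothelial markers found were above 1 FPKM in at least 1 library, as were 8 of 9 ciliated markers. The part of these cell types was not tested. Cyp2f2, the club cell P450 that was left out of the set, had another order, at 74.8, 22.4, 7.95 and 21.5 FPKM in animals 139, 140, 826 and 850.

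Cyp3a13 had the largest absolute log2 difference of the 12 genes, 1.06 (SE 0.72, limma adjusted p = 0.960), and it came from animal 826. This steroid- and drug-oxidising enzyme is the Cyp3a gene best known from the mouse intestine. It had 1.80 and 0.926 FPKM in the Usp25+/+ pair, against 8.77 and 1.39 FPKM in the Usp25-/- pair. Animal 850 lay between the Usp25+/+ values, and without animal 826 the log2 difference was 0.04. Of the 53 genes with a mean under 1 FPKM, 9 were highest in animal 826 and 36 in animal 139. Of the 9775 such genes of the whole table, 54.5% were above 0 in 826 and 87.9% in 139. A pair of those 9, picked afterwards, is given here. The rest were Cyp2a5, Cyp4f37, Cyp3a57, Cyp3a11, Cyp4f14, Cyp2a12 and Cyp3a59. Cyp2c65, a gut-expressed Cyp2c gene, stood at 0.934 FPKM in animal 826 and at 0.0781 to 0.230 in the others. Cyp4f40 stood at 1.20 FPKM in 826 and at 0 to 0.308 in the others. Hnf4a, a transcription factor of gut and liver epithelium, stood in animals 139, 140, 826 and 850 at 1.02, 0.924, 9.04 and 2.49 FPKM. The 8 gastric surface cell markers summed to 133, 166, 2801 and 1069 FPKM in the same order, with 6 of 8 above 1 FPKM in some library. Tff1 and Gkn2, at 1848 and 645 FPKM in 826, made up most of that sum. Tff2 was lowest in 826, at 17.0 FPKM, and highest in 850, at 95.0 FPKM, and Muc6 was highest in 139. The other gastric markers were highest in 826. The 9 absorptive colonocyte markers found summed to 6.04, 4.08, 70.6 and 11.8 FPKM in 139, 140, 826 and 850, with 2 at 0 in every library. Krt20 and Guca2a, at 52.4 and 16.6 FPKM in 826, made up most of that sum. Of the 9, 6 were under 1 FPKM in every library, and of these Cdh17, Cdx2, Slc26a3 and Car1 were highest in 139. Animal 826 was thus highest in Hnf4a and in both sums, but not in most colonocyte markers. The part of such cells in the Cyp3a13 value was not tested.

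Of the remaining tested genes, Cyp2d22 and Cyp2ab1 were higher in animal 140 than elsewhere. Cyp2d22, of the drug-metabolising Cyp2d subfamily, had 1.46 and 3.75 FPKM in the Usp25+/+ pair, against 0.781 and 1.78 FPKM in the Usp25-/- pair, with a log2 difference of -0.62 (SE 0.48). Cyp2ab1 stood at 0.962 and 4.41 against 3.56 and 2.99 FPKM, with a log2 difference of 0.39 (SE 0.54), or -0.34 without animal 139. The Usp25-/- values lay between the Usp25+/+ values in Cyp2ab1, and the genotypes also overlapped in Cyp2d22. Cyp2j6, of the subfamily that epoxidises arachidonic acid, stood at 1.83 and 0.905 against 1.73 and 0.952 FPKM, with a log2 difference of -0.01 (SE 0.40).

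**Figure D3:**
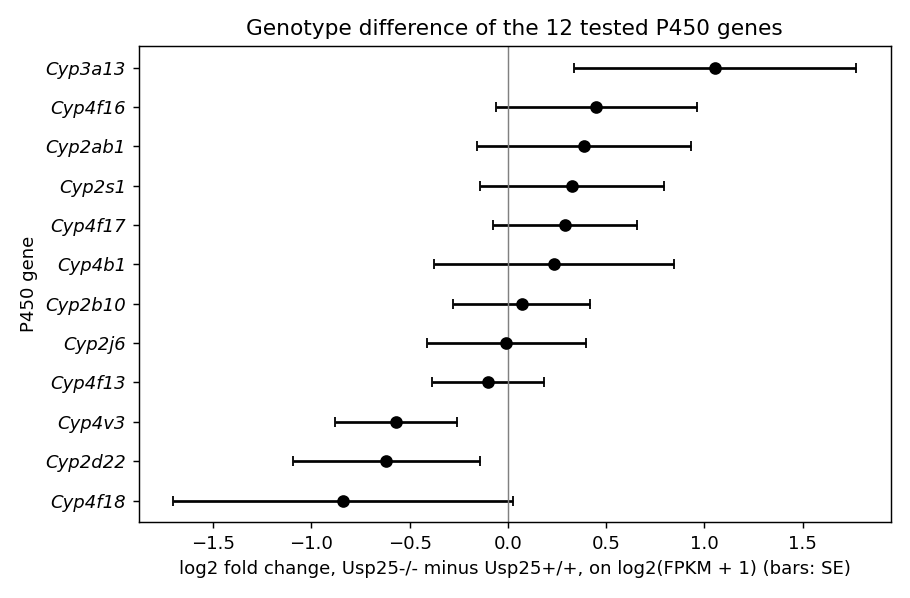
Points give the log2 difference of the 12 tested P450 genes, Usp25-/- minus Usp25+/+, on log2(FPKM + 1), and bars the moderated standard error (2 animals per genotype). The estimates run from -0.84 (Cyp4f18) to 1.06 (Cyp3a13), and 0 of the 12 passed the adjusted threshold.

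In all but 1 of the 12 genes, animals of 1 genotype differed by at least as much as the genotype means. The median absolute difference on log2(FPKM + 1) was 0.59 between animals 139 and 140, 0.43 between 826 and 850, and 0.36 between the genotype means. Over all genes tested these medians were 0.50, 0.27 and 0.28. That gene was Cyp4v3, and the genotype difference exceeded both differences within genotypes in 19.8% of all genes tested. In the order of mean levels, the 4-library ranges of neighbouring genes overlapped at every step but 1, from Cyp4f16 down to Cyp4f13. Cyp4v3 exceeded Cyp4f16 in 4 of 4 libraries despite overlapping ranges, while Cyp4f18 exceeded Cyp4v3 in 2 of 4.

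The other 53 genes had means under 1 FPKM and were not tested. Of these, 5 reached 1 FPKM in some library. Cyp2a5, which oxidises coumarin and nicotine, had 0.809 and 1.06 FPKM in the Usp25+/+ pair, against 1.46 and 0.510 FPKM in the Usp25-/- pair. Cyp2r1, which starts the activation of vitamin D, stood at 1.06 and 1.56 against 0.703 and 0.217 FPKM, both Usp25-/- values being the lower ones. Cyp4f37 stood at 0.383 and 0.608 against 1.18 and 0.771 FPKM, both Usp25-/- values being the higher ones. Cyp1b1, an aryl hydrocarbon receptor target that oxidises oestrogens and polycyclic hydrocarbons, stood at 1.43 and 0.0986 against 0.610 and 0.675 FPKM. The fifth was Cyp4f40, given above. At these levels the depth, which is unknown, limits what can be read from the order of the animals.

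Low genes were listed mainly in animal 139. Of the 65 genes, 60 were above 0 in animal 139, and 24, 31 and 27 in animals 140, 826 and 850. As a share this is 92.3% against 36.9% to 47.7%. Of the 21786 genes of the whole table that were above 0 in some library, as the P450 genes had to be, 94.4% were above 0 in 139 and 71.6% to 79.1% in the others, so the share in 139 was close to that of all such genes. Among the low genes alone, 90.6% of the 53 P450 genes were above 0 in 139, against 87.9% of the 9775 low genes of the whole table, and 22.6% to 35.8% in the others, against 37.7% to 54.5%. Among the 53 low genes, 23 were listed only in animal 139 (43.4%), where 27.5% of the 9775 were. Another 9 were listed only in 139 and 826. All 13 Cyp2c genes, which oxidise drugs and epoxidise arachidonic acid, were above 0 in animal 139, against 1, 2 and 4 in 140, 826 and 850, and none exceeded 0.934 FPKM anywhere. The 5 Cyp2d genes were all above 0 in 139, against 1 in each other library. Of the liver-type genes, Cyp2e1, which oxidises ethanol, was listed at 0.609, 0.189, 0 and 0.602 FPKM, and Cyp3a11 at 0.0799, 0, 0.263 and 0 FPKM. The 10 hepatocyte markers summed to 2.51, 0.877, 2.85 and 0.435 FPKM, and 2 of them were at 0 in every library. The 5 Cyp4a genes, fatty acid hydroxylases induced through Ppara, did not exceed 0.522 FPKM, and of these Cyp4a14 alone was listed in all 4 libraries, between 0.350 and 0.499 FPKM.

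**Figure D4:**
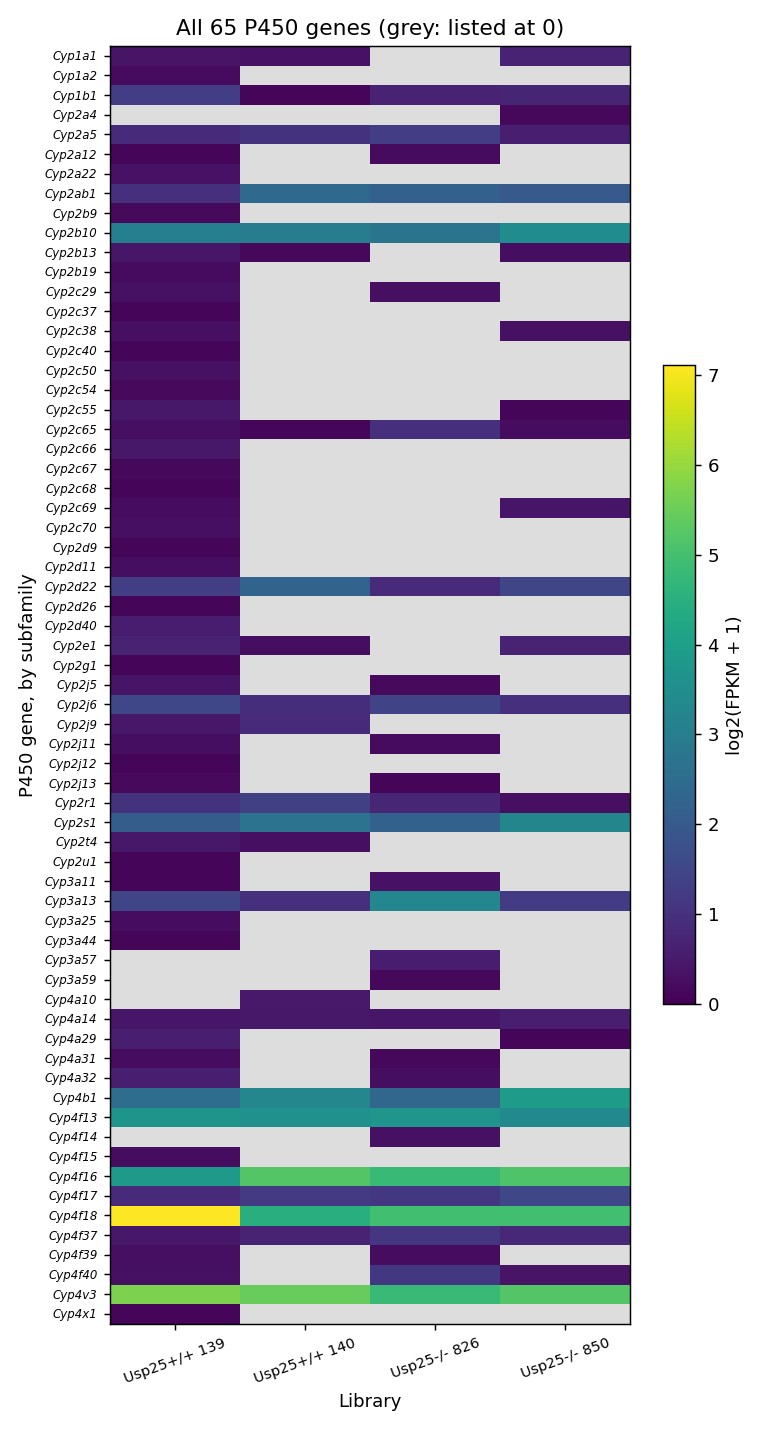
Each row is 1 of the 65 P450 genes, ordered by subfamily, each column 1 library, and the colour gives log2(FPKM + 1), with grey for genes listed at 0. The column of Usp25+/+ 139 is filled in 60 of 65 rows and those of the other animals in 24 to 31, while the bright rows are mostly family 4.

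Near-identical copies limit the values of the low clusters. Of the 63 genes with a transcript in GENCODE vM1, 32 shared at least 1 window of 100 bases, the read length, with another gene's protein-coding transcript, and 9 shared over 10% of their windows. The highest shares were 36.6% in Cyp2c40 and 33.6% in Cyp2c69, which share sequence with each other. Cyp2a5 shares 8.21% of its windows with Cyp2a4, which was listed in animal 850 alone, at 0.117 FPKM. Among the 12 tested genes, 4 shared any window. Symbols that end in a letter fell outside the pattern, among them the near-identical pair Cyp4a12a (4.10, 2.37, 0.614 and 3.23 FPKM in 139, 140, 826 and 850) and Cyp4a12b (3.20, 3.15, 0.872 and 2.76 FPKM).

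The start regions of tested and low P450 genes were compared by their letters. RefSeq start regions (table of build GRCm38.p6) matched 56 of the 65 genes, 10 tested and 46 low. The last 50 bases before the start held TATAAA, on either strand, in 0 of the 10 tested genes and in 15 of the 46 low ones (32.6%), against 3.78% of 27025 genes with a start region. The share was 2.1% in the start regions of all genes tested, so 0 of 10 does not set the tested P450 genes apart. The core of the aryl hydrocarbon receptor element, GCGTG on either strand, was in the 250 bases before the start in 4 of the 10 tested and in 17.4% of the low genes, against 28.2% of all. Among 8958 start regions of genes tested, 45.7% held GCGTG, so the share with GCGTG in the 10 was not above that of tested genes. These are descriptions of letters in a window, not of binding. The regions of Cyp4f18 and of Cyp1a1, the classical target of the aryl hydrocarbon receptor, are shown as a contrast, with GCGTG and TATAAA in capitals. Both were placed on mm9 by exact match, Cyp4f18 at chr8:74533526-74533775 on the minus strand and Cyp1a1 at chr9:57545170-57545419 on the plus strand.
Cyp4f18: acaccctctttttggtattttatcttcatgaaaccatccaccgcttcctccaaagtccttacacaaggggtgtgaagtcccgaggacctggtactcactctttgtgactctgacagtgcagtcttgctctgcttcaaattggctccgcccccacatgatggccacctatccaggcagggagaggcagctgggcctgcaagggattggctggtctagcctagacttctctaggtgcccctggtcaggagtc
Cyp1a1: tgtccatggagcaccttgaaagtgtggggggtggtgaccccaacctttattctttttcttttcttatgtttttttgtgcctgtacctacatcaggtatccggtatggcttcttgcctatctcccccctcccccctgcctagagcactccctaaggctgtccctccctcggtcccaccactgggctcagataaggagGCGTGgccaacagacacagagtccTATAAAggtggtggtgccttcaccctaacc
The Cyp1a1 window held 1 GCGTG, starting 54 bases before the start, and TATAAA starting 30 bases before it. The Cyp4f18 window held neither. Cyp1a1 itself had 0.292 and 0.262 FPKM in the Usp25+/+ pair, against 0 and 0.635 FPKM in the Usp25-/- pair, and Cyp1a2 in animal 139 alone, at 0.150 FPKM.

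Genes of the aryl hydrocarbon receptor axis mostly had negative log2 differences in Usp25-/-, with none past the adjusted test. Of the 9 tested, 8 were negative and 1 positive, with a median of -0.45, and without animal 139 these became 6 and 3, with a median of -0.03. Without animal 140 the median was -0.89. The libraries did not overlap in 1 of the 9, against 33.8% of all genes tested. Positive log2 differences made up 53.5% of all genes tested, with a median of 0.03, which also stands beside the lists below. Tiparp, an induced repressor of the receptor, was listed at 83.4 and 31.7 against 34.4 and 33.9 FPKM, high in animal 139 only. The receptor's partner Arnt stood at 12.9 and 9.11 against 7.65 and 9.20 FPKM. Ugt1a6b, a glucuronosyltransferase, stood at 4.96 and 5.58 against 2.40 and 0.360 FPKM, a log2 difference of -1.54 (SE 0.51, limma adjusted p = 0.960). Its first-exon neighbours share the rest of the transcript, so its value is uncertain. Aldh3a1, an aldehyde dehydrogenase, had a log2 difference of -0.85 (SE 0.69).

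The nuclear receptor and C/EBP genes that act on P450 genes were divided, with 5 of 11 tested positive, 6 negative, a median of -0.10 and 0 past the adjusted test. Without animal 140, 8 were positive and 3 negative, with a median of 0.34. Nr1i2 and Nr1i3, which encode PXR and CAR, were among the 5 under the filter. Cebpb stood at 127 and 200 against 246 and 208 FPKM, and Pparg at 27.4 and 54.3 against 80.4 and 66.6 FPKM, without overlap in either gene. Their log2 differences were 0.51 (SE 0.38) and 0.90 (SE 0.42). Cebpb, Pparg and Hnf4a were the 3 of the 11 without overlap, against 33.8% of all genes tested. Cebpa stood at 31.7 and 63.6 against 53.4 and 4.31 FPKM, low in animal 850 only. Hnf4a, given above, had a log2 difference of 1.58 (SE 0.56, limma adjusted p = 0.960).

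Genes of electron transfer and heme supply were well expressed. The log2 difference was positive in 13 of 18 tested, against 53.5% of all genes tested. It was negative in 5, and 0 passed the adjusted test. The median was 0.19, and without animal 139 it was -0.01, with 8 positive and 10 negative. With median-of-ratios scaling 11 were positive and 7 negative. Por, the P450 reductase, stood at 108 and 44.8 against 78.2 and 64.4 FPKM, and Cyb5a, cytochrome b5, at 160 and 208 against 228 and 207 FPKM. Alas1, the first enzyme of heme synthesis, stood at 138 and 129 against 118 and 104 FPKM, both Usp25-/- values being lower. Alad, which follows Alas1, had a log2 difference of 0.55 (SE 0.31). Hmox1, which degrades heme, stood at 451 and 273 against 592 and 315 FPKM. Por was added to the examples after its values were seen.

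P450 genes outside families 1 to 4 had 7 tested members, with a median log2 difference of 0.41 and 0 past the adjusted test. All 7 were positive, against 53.5% of all genes tested. Without animal 139, 4 were positive and 3 negative, with a median of 0.098. Without the filter on low values, 11 of 18 were positive and 7 negative, with a median of 0.05. With a pseudocount of 0.1, quantile normalization or median-of-ratios scaling, 6 were positive and 1 negative. Tbxas1, thromboxane synthase, was listed at 31.9 and 78.4 against 66.9 and 47.1 FPKM. Cyp51, of sterol synthesis, stood at 14.2 and 9.52 against 16.5 and 15.8 FPKM. It was the 1 gene of the 7 without overlap, against 33.8% of all genes tested. Cyp27a1, a sterol hydroxylase, stood at 1.53 and 9.08 against 5.88 and 7.76 FPKM, and Cyp20a1 at 10.6 and 12.7 against 12.7 and 12.6 FPKM.

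Among other enzymes of oxidation and hydrolysis, 8 of 17 tested were positive and 9 negative, with a median of -0.04 and 0 past the adjusted test. The balance moved with single animals, to 5 positive and 12 negative without 139 (median -0.32), 10 and 7 without 140 (median 0.14) and 12 and 5 without 826 (median 0.22). Aldh3b1, Ephx1 and Aldh1a1 had the highest means, with log2 differences, in that order, of -0.22 (SE 0.37), 0.05 (SE 0.54) and 0.40 (SE 0.29). Maob and Fmo2 had the largest absolute changes, 0.89 (SE 0.39) and -0.82 (SE 0.53). Fmo2, a flavin monooxygenase known from lung, was listed at 7.77 and 4.75 against 1.53 and 5.40 FPKM. Of the conjugating enzymes, 3 of 10 tested were positive and 7 negative, with a median of -0.24 and 0 past the adjusted test. Without animal 139 or without animal 850, 5 were positive and 5 negative, with medians of 0.02 and -0.04. Ugt1a7c and Sult1a1 had log2 differences, in that order, of -0.36 (SE 0.33) and -0.08 (SE 0.54), and Ugt1a6a of -0.77 (SE 0.67). Ugt1a6a and Ugt1a6b are counted in the aryl hydrocarbon receptor list as well, so the counts of these lists are not separate. The tested enzymes include Ugt1a1, Ugt1a6a, Ugt1a6b, Ugt1a7c and Ugt1a10, and the limit of a shared transcript given for Ugt1a6b holds for them too.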

How the data were processed

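Poly(A) RNA of 4 animals was sequenced as unstranded pairs of 100-base reads, per the labels' protocols. Per the submitters' processing notes, the tools were cutadapt, TopHat2 2.1.1 and Cufflinks, and the build was mm9; the sources used here give no annotation, filter or scaling. The values deposited by the authors were taken as FPKM because Cufflinks is named and library totals differ (526652 to 565645); no header states the unit. Depth is unknown, so no counting interval is given.

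Groups came from the titles. The 12011 genes averaging 1 FPKM or more were tested on the log2(FPKM + 1) scale, where fold changes of low genes come out too small, with limma 3.58.1 in R 4.3.3 (lmFit, eBayes with trend, two-sided, Benjamini-Hochberg, threshold 0.05), and the script was tested on simulated data. The P450 genes and all lists were chosen with earlier results of these data known. Every tested gene is named, as are low ones reaching 1 FPKM. From each pathway list the 3 highest means and the 2 largest absolute log2 fold changes are named, except for some genes that are not reported here, and the markers and low genes given beside a result were picked afterwards. Alternatives were pseudocounts, filters, scalings, the variance model and leaving out each animal.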

Additional observations from a re-analysis of the deposited data

How the results depend on the processing

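No gene was called with limma under any alternative (0 called in each). Genes at an unadjusted p under 0.05 numbered 375 as reported, 108 without animal 826, 2593 without 140, and 227 to 578 under the others. P450 genes among them were Cyp4f18 (adjusted p = 0.0757), Cyp4f16 and Cyp2ab1 without 140, Cyp3a13 without 850, and Cyp2j9, chosen after its value was seen, without the filter on low values. Other pseudocounts and scalings kept the sign of each of the 12 log2 fold changes. The variance model and the filters do not enter a log2 fold change, so its sign could not move with them. With a minimum mean of 5 FPKM, 7 of the 12 were tested. Leaving out each animal in turn gave Cyp4f18 -2.16 to 0.48, Cyp4f16 -0.23 to 1.13, Cyp4f13 -0.27 to 0.068, Cyp4b1 -0.57 to 1.04, Cyp2b10 -0.29 to 0.43, Cyp2s1 -0.21 to 0.86, Cyp2ab1 -0.34 to 1.12 and Cyp2j6 -0.29 to 0.28, so these 8 changed sign. Cyp4v3 (-0.76 to -0.38), Cyp2d22 (-1.10 to -0.14), Cyp4f17 (0.11 to 0.47) and Cyp3a13 (0.04 to 2.07) did not. For Cyp4v3 a change of sign was not possible, because its genotypes did not overlap. The median of the 12 ran from -0.07 to 0.24 and was negative without animal 139 or 850. The P450 genes without overlap numbered 6 to 7 when an animal was left out, where fewer libraries overlap less often by construction (53.0% to 80.8% of all genes), and 6 of 65 without the filter on low values, where 25.5% of all 21786 genes did not overlap. A genotype left with 1 animal is assumed to vary like the other. The alternatives for the other lists were added after seeing the data. No paired analysis was made because the labels used here do not pair the animals.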
